A study of Mus musculus with 11 samples.

Results

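The HoxB cluster on mouse chromosome 11 holds 10 homeobox genes, Hoxb1 to Hoxb9 and Hoxb13, and their coverage by peaks of Smchd1 was described gene by gene. The genes were chosen by name, as all 10 Hoxb genes of the RefSeq table in build mm10, out of 21775 coding genes in that table. For each gene, peaks in its annotated span or within 5 kb of it were counted, and the share of the span lying in peaks was measured, as was the share of the long space between Hoxb9 and Hoxb13.

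Hox genes encode transcription factors that give cells their position along the head-to-tail axis. They sit in 4 clusters, HoxA, HoxB, HoxC and HoxD, and within a cluster genes at 1 end (Hoxb1) act towards the head and genes at the other end (Hoxb13) towards the tail. Genes with the same number in different clusters descend from 1 ancestral gene and are called paralogues. Where Hox genes are off, the clusters are a classic site of Polycomb repression, and Smchd1, an SMC-family chromatin protein, is known for its role in silencing the inactive X and certain clustered autosomal genes.

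Binding was profiled by ChIP-seq in cultures of neural stem cells grown from C57BL/6 embryos (E14.5) and kept for at most 20 passages. Knock-in cells (Smchd1 GFP/GFP) carried the GFP fusion allele in 2 copies, and wild-type cells had no tag; both were pulled down with anti-GFP antibody, while whole cell extract served as input, its genotype not being labelled. After digestion with micrococcal nuclease (MNase), which cuts DNA between nucleosomes, there were 2 knock-in libraries (1 male, 1 female), 2 wild-type libraries (1 male, 1 female) and 1 female library of whole cell extract; after 30 min of sonication there were 6 female libraries, 2 each of knock-in cells, wild-type cells and whole cell extract. The labels name 1 peak list for each experiment, called a pooled list here, and every value below describes such a list. How knock-in, wild-type and input libraries entered it was not stated in the sources used. There is no value per library, no replicate spread, no known depth and no test between knock-in and wild-type cells. Peak positions hold no expression, so the cell type could not be checked against markers, and whether any HoxB gene was expressed in these cells was not measured.

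In the MNase list, 10 of the 10 HoxB genes had a peak in or within 5 kb of the span, where 5.28% of coding genes did. In the sonication list 6 of the 10 had one, where 3.38% of coding genes did. MNase peaks overlapped 9 of the 10 spans, all but that of Hoxb1, where 4.12% of coding genes were overlapped. Sonication peaks overlapped 4, those of Hoxb5, Hoxb6, Hoxb8 and Hoxb9, where 2.92% of coding genes were overlapped. Among coding genes with a span in the range of the HoxB spans, 3.44% had an MNase peak and 1.26% a sonication peak within 5 kb. The 10 genes are neighbours and share peaks, so these counts are not 10 separate observations. The HoxB cluster, chr11:96194316-96368254, held 55 MNase peaks, which is 28.9% of the 190 on chromosome 11, and 6 sonication peaks, which is 9.84% of the 61 on that chromosome. MNase peaks covered 31.5% of the cluster and 0.126% of chromosome 11, and sonication peaks covered 3.62% of the cluster and 0.0237% of the chromosome. The chromosome was measured from 3 Mb to its last gene or peak, with the cluster included. The authors' list of broad domains held 11 domains, with 0 on chromosome 11.

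**Figure D1:**
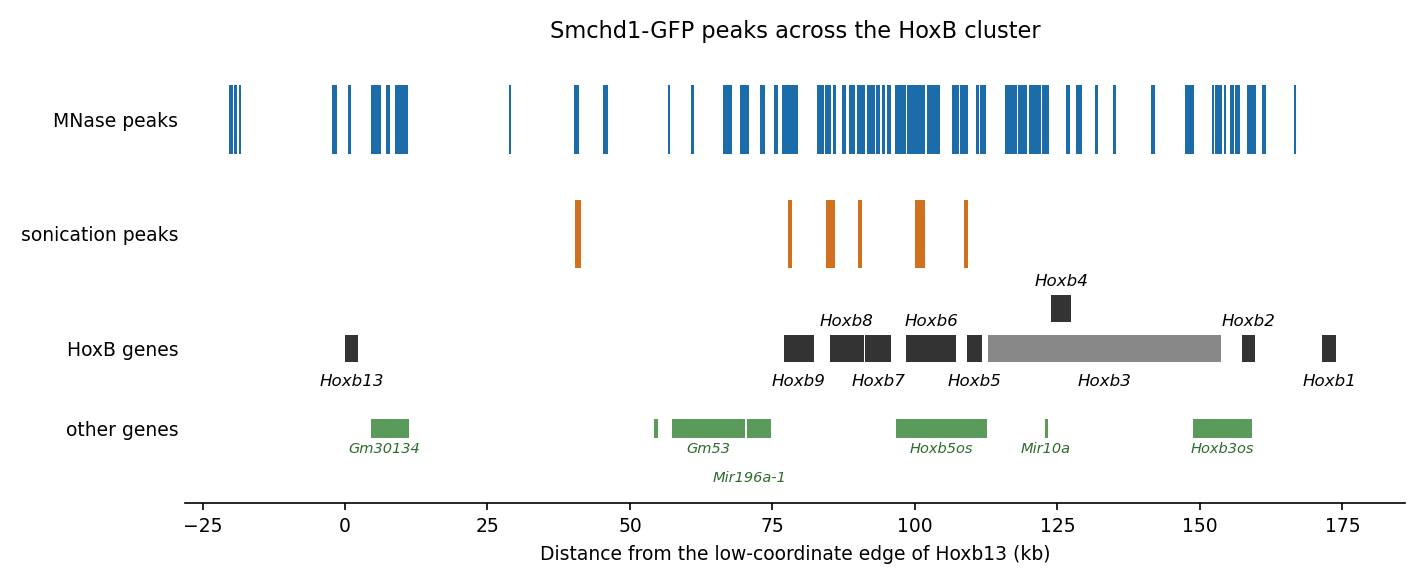
Positions of MNase peaks (blue) and sonication peaks (orange) along the HoxB cluster, with HoxB genes in black (Hoxb3, whose span contains Hoxb4, in grey) and other annotated genes in green; the x axis is the distance in kb from the low-coordinate edge of Hoxb13. MNase peaks are closely spaced from Hoxb9 to Hoxb5, sparse in the long space next to Hoxb13, and end 4546 bp before Hoxb1; 5 of the 6 sonication peaks lie from Hoxb9 to Hoxb5.

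Coverage was uneven along the cluster and, averaged over the stretch, higher from Hoxb9 to Hoxb5 than from there to Hoxb1. In those 34.8 kb, MNase peaks covered 65.1% of the bases and sonication peaks 15.1%. From the end of Hoxb5 to the end of Hoxb1, a stretch of 62.1 kb, MNase peaks covered 29.7% and there were 0 sonication peaks. The last sonication peak of the cluster ended inside Hoxb5, so that 0 follows from where the line was drawn. In windows of 10 kb counted from the edge of Hoxb13, the MNase share reached 79.0% in the window from 90 to 100 kb, from the end of Hoxb8 over Hoxb7 to the beginning of Hoxb6, and 65.9% in the next window. Beyond Hoxb5 the windows varied too, with 49.5% from 120 to 130 kb, 9.0% from 130 to 140 kb and 48.0% from 150 to 160 kb. From Hoxb9 to Hoxb1, the genes had 42.7% of their bases in MNase peaks and the spaces between them 41.7%. With Hoxb13 and the long space next to it counted too, the genes had 42.2% and the spaces 23.4%.

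The genes from Hoxb9 to Hoxb5 included all 4 that a sonication peak overlapped. Hoxb9, a gene of the trunk level (chr11:96271330-96276595), had 46.0% of its span in MNase peaks and 11.4% in sonication peaks. Its MNase coverage came from a peak of 2250 bp at its low-coordinate edge and an adjoining peak of 450 bp, and the rest of the gene was free. Hoxb8, known for work on spinal cord and blood progenitors (chr11:96279401-96285325), had 62.0% in MNase peaks, spread over 6 peaks. It had 23.6% in sonication peaks, the largest share of the 10 members in that list.

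Hoxb7, a gene of the trunk and the kidney duct (chr11:96285604-96290163), had the highest MNase share of the 10 members, 72.4%, from 4 peaks of 600 to 1350 bp. No sonication peak overlapped it, and the nearest ended 604 bp away, in Hoxb8. Hoxb6 (chr11:96292814-96301569) had 69.3% in MNase peaks and 20.6% in sonication peaks. Its sonication peak of 1800 bp was the widest of the cluster and lay within an MNase peak of 1950 bp. Hoxb5, a gene of the neck level and the gut nervous system (chr11:96303512-96306121), had 42.5% in MNase peaks, and a sonication peak reached only 89 bp into it, 3.41% of its span. The non-coding transcript Hoxb5os, whose span of 15.9 kb contains Hoxb5 and Hoxb6, had 71.6% in MNase peaks and 16.1% in sonication peaks, so bases counted for it are counted for those genes as well.

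**Figure D2:**
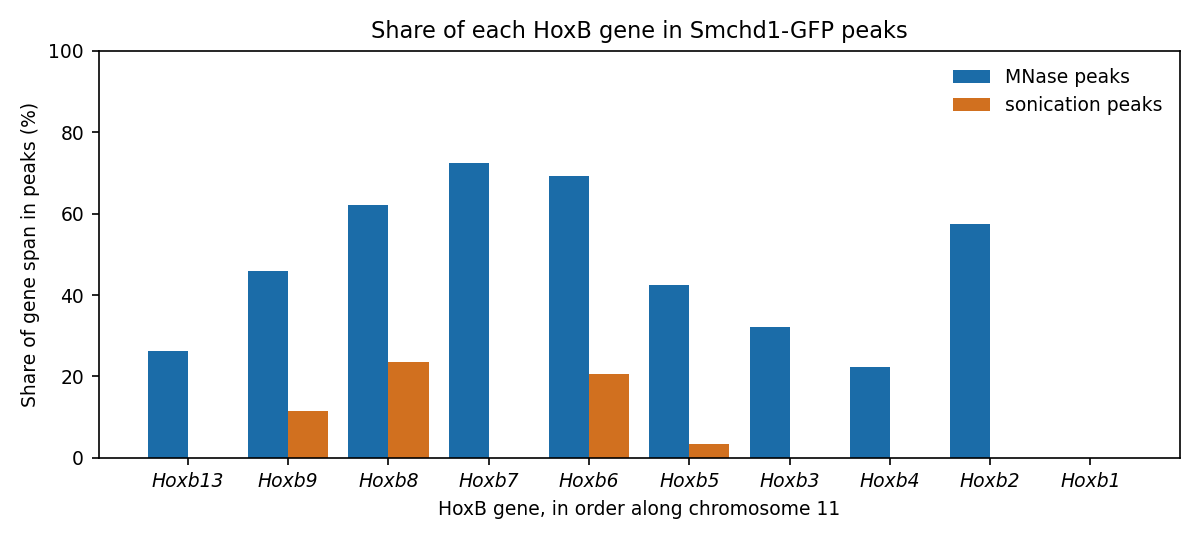
Share of each HoxB gene's span, in percent, that lies in MNase peaks (blue) and in sonication peaks (orange), in the order of the genes along chromosome 11. MNase shares run from 72.4% in Hoxb7 to 0% in Hoxb1, and sonication shares are above 0% only in Hoxb9, Hoxb8, Hoxb6 and Hoxb5; bars are single values of pooled lists, with no error.

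Towards the head end, shares differed widely between genes, and no sonication peak overlapped any of them. Hoxb4, a gene of the hindbrain and neck level also known in blood stem cells (chr11:96318267-96321638), had 22.2% of its span in MNase peaks, all from 1 peak of 750 bp near its high-coordinate end. Hoxb3, a hindbrain gene (chr11:96307101-96347930), had 32.2% of a span of 40.8 kb in 13 MNase peaks, and its span contains the whole of Hoxb4. With the bases of Hoxb4 left out, the share of Hoxb3 was 33.1%. Hoxb2, a hindbrain gene regulated by Hoxb1 (chr11:96351632-96354020), had 57.3% in a single MNase peak of 1500 bp that ran past its high-coordinate end. Hoxb3 counted among the 6 genes with a sonication peak within 5 kb because a peak ended 3501 bp away, in Hoxb5.

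Hoxb1, which sets the identity of a hindbrain segment and its facial motor neurons (chr11:96365746-96368254), overlapped 0 MNase peaks. Its nearest MNase peak, of 450 bp, ended 4546 bp from the gene, just inside the limit of 5 kb, and was the last of the cluster. In the sonication list, the farthest member inside the limit was Hoxb3 and the nearest member outside it was Hoxb4, at 14667 bp from a peak. Beyond the last MNase peak of the cluster, 191 kb were free of MNase peaks, up to a peak in Skap1. At the other edge, Hoxb13 (chr11:96194316-96196610), a gene of the tail bud and the prostate, had 26.1% in 1 MNase peak of 600 bp. It had 0 sonication peaks, the nearest being 37991 bp away.

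Ranked by the share of the span in MNase peaks among all 21775 coding genes, Hoxb7 came at place 28, Hoxb6 at 31, Hoxb8 at 36 and Hoxb2 at 38. Hoxb9 came at 44, Hoxb5 at 46, Hoxb3 at 58, Hoxb13 at 67 and Hoxb4 at 76. Hoxb1, at 0%, shared place 899 with every coding gene that had no base in an MNase peak. The genes above Hoxb7 included other Hox genes, such as Hoxa7 at 100%. The median share over all coding genes was 0%, and over the 10 HoxB genes it was 44.3%. In the sonication list the median over the 10 genes was 0%.

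RefSeq promoter windows of the table (GRCm38.p6, the assembly of mm10) were available for 3 of the 10 members. Each holds 250 bases before a start that need not be the edge of the annotated span, and the windows were compared with the peaks. The window of Hoxb8 (chr11:96281655-96281904, plus strand) lay wholly in an MNase peak of 600 bp; it belongs to a start inside the annotated span. The window of Hoxb4 (chr11:96318017-96318266, plus strand) overlapped 0 peaks and began 167 bp from the end of the nearest. The window of Hoxb1 (chr11:96365508-96365757, plus strand) overlapped 0 peaks, with the nearest 4308 bp away. Its last bases lie inside the annotated span of Hoxb1. The window of the antisense transcript Hoxb3os (chr11:96353395-96353644, minus strand), which lies inside Hoxb2, was wholly in an MNase peak of 1500 bp. They are printed because they set a pair of covered windows beside a pair of free ones, 5′ to 3′ along the strand of the gene, with CG dinucleotides in capitals.
Hoxb8: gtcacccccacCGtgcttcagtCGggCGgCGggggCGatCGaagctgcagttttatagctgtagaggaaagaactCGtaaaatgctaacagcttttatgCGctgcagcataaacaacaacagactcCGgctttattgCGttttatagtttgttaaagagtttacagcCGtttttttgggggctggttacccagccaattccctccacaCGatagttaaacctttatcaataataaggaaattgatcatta
Hoxb3os: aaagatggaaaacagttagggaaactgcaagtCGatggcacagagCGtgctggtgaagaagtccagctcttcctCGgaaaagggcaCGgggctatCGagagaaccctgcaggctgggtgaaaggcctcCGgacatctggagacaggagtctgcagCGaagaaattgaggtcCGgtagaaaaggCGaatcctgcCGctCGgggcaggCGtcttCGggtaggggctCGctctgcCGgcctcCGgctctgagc
Hoxb4: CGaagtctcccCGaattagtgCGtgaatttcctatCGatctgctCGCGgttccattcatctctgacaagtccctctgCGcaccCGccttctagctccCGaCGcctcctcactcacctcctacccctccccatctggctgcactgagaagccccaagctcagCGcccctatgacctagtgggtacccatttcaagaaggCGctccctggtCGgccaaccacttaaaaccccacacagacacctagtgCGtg
Hoxb1: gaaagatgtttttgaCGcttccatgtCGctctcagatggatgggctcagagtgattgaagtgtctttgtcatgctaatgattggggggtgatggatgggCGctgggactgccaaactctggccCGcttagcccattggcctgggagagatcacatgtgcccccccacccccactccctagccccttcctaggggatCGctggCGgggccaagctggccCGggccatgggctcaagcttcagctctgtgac

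The covered windows of Hoxb8 and Hoxb3os held 12 and 16 CG dinucleotides, and the free windows of Hoxb4 and Hoxb1 held 14 and 7. The table holds 4 more windows in the cluster, all of non-coding transcripts: 3 overlapping windows of Gm30134 lay wholly in an MNase peak and held 13, 15 and 19 CG dinucleotides, and the window of Gm51876 overlapped 0 peaks and held 6. The GC share was 44.4% in Hoxb8, 59.2% in Hoxb3os, 58.0% in Hoxb4 and 59.2% in Hoxb1. Of the 32851 windows in the table, 264 overlapped an MNase peak (0.804%), and their median was 15 CG dinucleotides, where windows without a peak had a median of 6. The motif TGATNNAT, a core recognised by Hox proteins together with their Pbx partners, was searched on both strands and occurred once in the window of Hoxb8 and once in that of Hoxb1; 7.68% of all windows held it. The motif TATAAA, searched likewise, occurred at 2 places in the window of Hoxb8 and at 0 in the others printed, and 12.4% of all windows held it.

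The cluster also encodes 2 microRNAs, small RNAs that repress messenger RNAs through a seed of bases 2 to 8 and that lie in Hox clusters of many animals. Their mature 5′ strands are printed because 1 lies inside a peak and the other on a peak's edge, with the seed in capitals (RefSeq, GRCm38.p6).
miR-10a-5p: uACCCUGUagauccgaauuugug
miR-196a-5p: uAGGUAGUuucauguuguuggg

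The Mir10a hairpin (chr11:96317165-96317274), inside the annotated span of Hoxb3 and before Hoxb4, lay wholly in an MNase peak of 1200 bp, the same peak that ended 167 bp before the Hoxb4 window. The Mir196a-1 hairpin (chr11:96265164-96265265), between Hoxb13 and Hoxb9, straddled the edge of an MNase peak of 1650 bp, which covered 37 bp of it. Of the 22 bases of miR-196a-5p, 14 lay in that peak. No sonication peak overlapped either hairpin. Mir10a was 13565 bp and Mir196a-1 was 6836 bp from the nearest sonication peak.

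The space between Hoxb13 and Hoxb9 (chr11:96196611-96271329), the longest within the cluster at 74.7 kb, was covered to 17.4% by the 14 MNase peaks that touched it. The 24.9 kb next to Hoxb9 had 24.6% in peaks, the middle 24.9 kb had 9.03% and the 24.9 kb next to Hoxb13 had 18.7%. The longest stretches without a peak in this interval were 17.7, 10.95 and 10.5 kb. With adjoining MNase peaks counted as 1 stretch, the median space between stretches was 3450 bp in this interval and 600 bp from Hoxb9 to Hoxb1. Next to Hoxb13, peaks lay on the predicted non-coding transcripts Gm30134, with 61.4% of its span in MNase peaks, and Gm11538, with 93.6%. Nearer to Hoxb9, the non-coding transcripts Gm53 and Gm51876 had 24.8% and 29.9% in MNase peaks. The pseudogene Gm11539 had 0%.

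Of the 7 shorter spaces between neighbouring HoxB genes, 6 had a larger share in MNase peaks than the long one, and the space between Hoxb2 and Hoxb1 had a smaller share. MNase peaks covered 73.1% of the 2.81 kb between Hoxb9 and Hoxb8, 98.9% of the 278 bp between Hoxb8 and Hoxb7, and 73.6% of the 2.65 kb between Hoxb7 and Hoxb6. Between Hoxb6 and Hoxb5 the share was 92.3% of 1.94 kb, and a sonication peak took up 34.0% of that space. The share was 64.2% of the 979 bp between Hoxb5 and Hoxb3 and 54.6% of the 3.70 kb between Hoxb3 and Hoxb2. It was 11.3% of the 11.7 kb between Hoxb2 and Hoxb1. The shortest of these spaces are small against the peak grid of 150 bp, so their shares move in coarse steps.

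**Figure D3:**
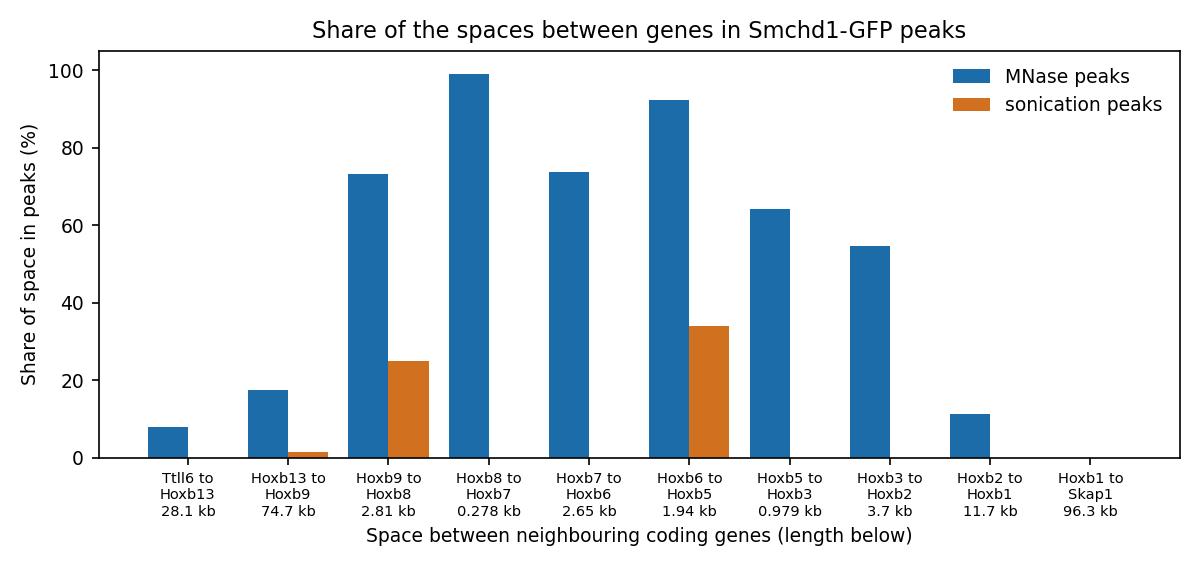
Share of the space between neighbouring coding genes, in percent, that lies in MNase peaks (blue) and sonication peaks (orange), in chromosome order with the length of each space under its name. The 74.7 kb between Hoxb13 and Hoxb9 had 17.4% in MNase peaks, against 54.6% to 98.9% in the 6 spaces from Hoxb9 to Hoxb2 and 11.3% between Hoxb2 and Hoxb1; the 96.3 kb between Hoxb1 and Skap1 had 0%.

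Outside the cluster, MNase coverage was lower than the 31.5% of the cluster as a whole. Sparse parts inside the cluster came near the level outside it on the Ttll6 side: the middle of the long space had 9.03% and the space between Hoxb2 and Hoxb1 11.3%. Between Ttll6, a tubulin-modifying enzyme gene, and Hoxb13, MNase peaks covered 8.0% of 28.1 kb. Ttll6 itself had 0.719% of its span in a single MNase peak. The next genes on that side, Calcoco2, an autophagy receptor gene, and Atp5g1, an ATP synthase subunit gene, had 0 peaks of either list within 5 kb. On the other side, the 96.3 kb between Hoxb1 and Skap1 had 0 peaks. Skap1, a long T cell adaptor gene of 295 kb, had 10 MNase peaks over 2.08% of its span and 1 sonication peak. Snx11, a sorting nexin gene, and Cbx1, which encodes a heterochromatin protein, had 0 peaks of either list within 5 kb.

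Sonication peaks in the cluster fell on MNase peaks. All 6 overlapped an MNase peak (95% Wilson interval 61.0% to 100%), with 90.5% of their bases shared, and 4 lay wholly inside MNase peaks. Over the whole list 49 of 2196 sonication peaks did (2.23%, interval 1.69% to 2.94%). The intervals cover counting error only, and neighbouring peaks are not independent. The whole list is also not a like background, because MNase peaks are dense in Hox clusters. From Hoxb9 to Hoxb5, where 5 of the 6 lay, MNase peaks covered 65.1% of the bases, so most positions there would touch one. They covered 60.8% of HoxC, 70.1% of HoxD and 82.0% of HoxA. Whether the overlap exceeds what this local coverage gives was not tested. The 23 sonication peaks of the 4 Hox clusters all overlapped an MNase peak, HoxB's 6 included, as did 26 of the 2173 peaks elsewhere (1.20%). Read from the other list, 7 of the 55 HoxB MNase peaks overlapped a sonication peak (12.7%), where 47 of 2840 MNase peaks did in all (1.65%). The experiments differed in fragmentation and in the sex of the cells, which cannot be told apart.

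The sonication peak in the long space (chr11:96234601-96235650) had 71.4% of its 1050 bp in an MNase peak and lay 35680 bp from Hoxb9. The peak at Hoxb9 (chr11:96272101-96272700) was wholly inside the MNase peak of 2250 bp. Of the 2 sonication peaks at Hoxb8, the wider (chr11:96278701-96280200) began before the gene and shared 80.0% of its 1500 bp with 2 MNase peaks. The narrower (chr11:96284401-96285000) was wholly inside an MNase peak. The peak between Hoxb6 and Hoxb5 (chr11:96302851-96303600) had the same start and end in both lists; no other sonication peak of the list matched an MNase peak at both ends. The 7 HoxB MNase peaks with a sonication peak had a median width of 1050 bp, ranging from 600 to 2250 bp. The 48 without had a median of 750 bp, ranging from 300 to 2250 bp.

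The median HoxB peak was wider than that of its list, in both lists. In the sonication list the 6 HoxB peaks had a median width of 900 bp, where the list had 300 bp. The 55 HoxB MNase peaks had a median width of 900 bp, where the median of the list was 450 bp, and 3 of the 55 had the smallest width of 300 bp, where 38.2% of the list did. The widest measured 2250 bp. Median widths above those of the lists were not particular to HoxB. MNase peaks had a median width of 1350 bp in HoxA, 1200 bp in HoxC and 1875 bp in HoxD, all above the 900 bp of HoxB. In the sonication list the medians were 1200 bp in HoxA, 900 bp in HoxC and 750 bp in HoxD. In the other Hox clusters the widest MNase peaks were 13800 bp in HoxA, 12900 bp in HoxD and 4650 bp in HoxC. HoxB had 0 MNase peaks over 3 kb, against 7 in HoxA, 4 in HoxC and 5 in HoxD. Adjoining peaks were counted as 1 stretch, and the longest unbroken stretch was then 3.15 kb in HoxB, 26.9 kb in HoxA, 6.30 kb in HoxC and 14.4 kb in HoxD. Unbroken length depends on breaks of 150 or 300 bp, which were frequent. With peaks up to 300 bp apart joined, stretches fell from 49 to 34 in HoxB and from 23 to 15 in HoxA. They fell from 39 to 23 in HoxC and from 20 to 11 in HoxD. No test of the difference between clusters was made, since each is a single region in 1 pooled list.

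HoxB genes mostly had a smaller share of their span in MNase peaks than their paralogues. In 18 of the 20 comparisons made between a HoxB gene and a paralogue, the paralogue had the larger share, and 8 of the 10 HoxB genes lay below every paralogue compared. Hoxb7, the most covered member at 72.4%, compared with 100% in Hoxa7. These shares are of peaks as listed. With peaks up to 1 kb apart joined, Hoxb7 had 100% and Hoxb8 82.3%, and paralogues were not compared gene by gene in that way. Hoxb9 at 46.0% compared with 100% in Hoxa9, 83.8% in Hoxc9 and 100% in Hoxd9. Hoxb4 at 22.2% compared with 100% in Hoxa4, 36.8% in Hoxc4 and 83.3% in Hoxd4. Hoxb5 at 42.5% compared with 100% in Hoxa5 and 83.1% in Hoxc5.

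The exceptions were at both ends. Hoxb13 at 26.1% was above Hoxc13 at 11.7% and below Hoxa13 at 71.4% and Hoxd13 at 100%. Hoxb1 at 0% equalled Hoxd1 at 0%. Annotated lengths differ between paralogues, as in the pair Hoxb4 of 3.37 kb and Hoxc4 of 18.8 kb, and a longer span can take in other genes and spaces.

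**Figure D4:**
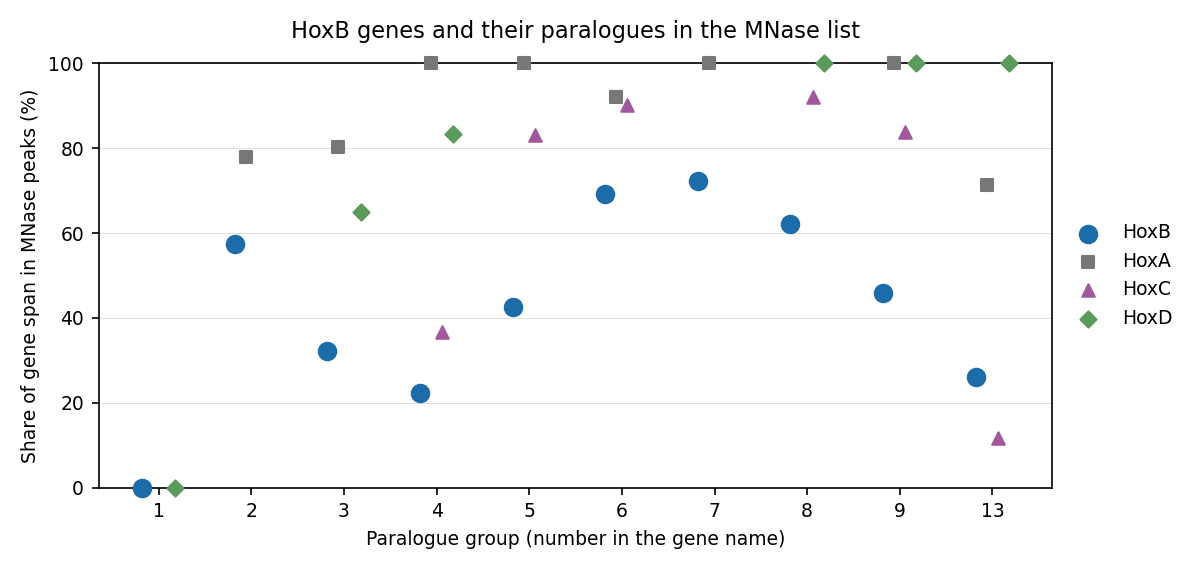
Share of the gene span in MNase peaks, in percent, for each HoxB gene (large blue circles) and the paralogues compared with it in HoxA (grey squares), HoxC (purple triangles) and HoxD (green diamonds), by paralogue group. The HoxB gene is the lowest point in 8 of the 10 groups; in group 13 Hoxc13 lies below it, and in group 1 Hoxb1 and Hoxd1 are both at 0%.

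HoxB remained the least covered of the 4 clusters when MNase peaks separated by short breaks were joined. With MNase peaks up to 300 bp apart joined, HoxB was covered to 33.5%, against 83.2% in HoxA, 63.9% in HoxC and 72.3% in HoxD. With peaks up to 2000 bp apart joined, HoxB reached 42.8%, against 96.5% in HoxA, 76.3% in HoxC and 79.1% in HoxD. Without the space to Hoxb13, from Hoxb9 to Hoxb1, HoxB had 42.4% in peaks as listed. In the sonication list, HoxB at 3.62% lay between HoxC at 3.37% and HoxD at 4.64%, and HoxA had 10.8%.

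**Figure D5:**
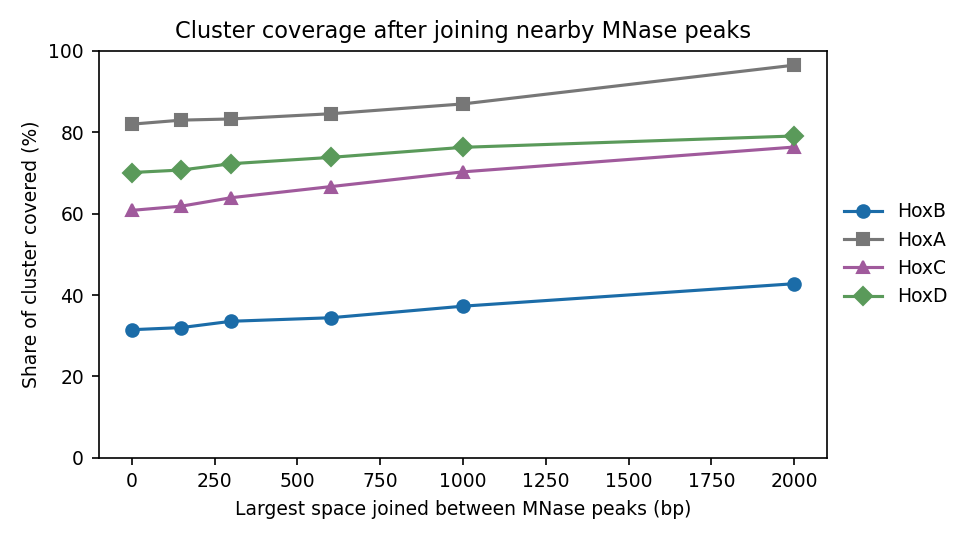
Share of each Hox cluster covered, in percent, after MNase peaks separated by no more than the number of bases on the x axis were joined. HoxB (blue circles) runs from 31.5% to 42.8% and stays below HoxC, HoxD and HoxA at every value tried.

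Peaks were also counted at genes that work with HoxB genes or regulate them. Of the 29 other Hox genes, 28 had an MNase peak and 19 a sonication peak within 5 kb, where 5.28% and 3.38% of all coding genes did. The same shares are the background for the other lists, but they take no account of span. Among coding genes in the range of the HoxB spans they were 3.44% and 1.26%. Counts that rest on the long genes below therefore have no background matched for length. Of 9 genes for Pbx, Meis and Pknox proteins, which bind DNA together with Hox proteins, 4 had an MNase peak and 0 a sonication peak. The shares of their spans were small: Meis2 had 0.654%, Meis1 0.539% and Pbx3 0.299%, in genes of 139 to 206 kb. Of 18 genes known to act upstream of HoxB genes, 5 had an MNase peak and 1, the retinoic acid receptor gene Rarb, a sonication peak. Cdx2, a caudal homeobox gene, had 9.45%, Cyp26b1, which breaks down retinoic acid, 2.67% and the retinoid receptor gene Rxrg 0.727%. Of 17 Polycomb and Trithorax genes, Suz12 with 1.46% and Jarid2 with 0.236% had 1 MNase peak each, and 0 had a sonication peak.

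Outside the Hox clusters, 11 coding genes had peaks of both lists within 5 kb and a span in the range of the HoxB spans; 0.749% of all coding genes had peaks of both lists. Those nearest to the HoxB medians of 44.3% (MNase) and 0% (sonication), by straight-line distance in percentage points over these 2 lists, were named. Genes with MNase peaks only were not candidates, although only 6 of the 10 HoxB genes had a sonication peak within 5 kb, so nearer genes may exist. Tfap2a, a neural crest factor gene, had 52.8% in MNase and 3.68% in sonication peaks, at a distance of 9.30. The Iroquois homeobox gene Irx2 had 32.3% and 0%, at 12. The homeobox gene Msx1 had 58.2% and 17.9%, at 22.8. Nr2f2, an orphan nuclear receptor gene, had 82.1% and 8.11%, at 38.7. The protocadherin gene Pcdh8 had 9.07% and 19.8%, at 40.4.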

How the data were processed

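Groups were taken from the library titles. The 2 deposited peak lists give positions only, in base pairs (unit "other"): all starts lie on a grid of 150 bp and all widths are at least 300 bp, and the value column was empty. SeqMonk is named in the MNase list, per the file headers, and bcl2fastq, Bowtie 0.12.9, MACS2 and mm10 come, with no role stated, from the submitters' processing notes (per the labels); the way control libraries entered each list was not given in the sources used here. The authors' score of each deposited broad domain was not used, only its position.

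Genes came from the RefSeq table of GRCm38.p6, without records in the first 3 Mb of a chromosome other than Y. A peak within 5 kb, or overlapping by at least 1 bp, was counted, and overlapping bases were counted once. Spans were used whole; strand came only from the promoter table. Interval functions were tested on simulated data. Positions were analysed in Python 3.11.15 with pandas 2.3.3 and scipy 1.17.1.

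The HoxB genes, the gene lists and the alternatives were chosen with earlier results of these data known. Genes were named by rule: all members, every gene inside the cluster, the nearest 3 coding genes on each side, up to 4 genes of each list by MNase share plus any with a sonication peak, and the 5 most alike genes; a few genes that this rule selects, and their paralogue comparisons, are left out. Paralogues, and the joining distances other than 1 kb, were chosen after values were seen.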

Additional observations from a re-analysis of the deposited data

How the results depend on the processing

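Counts of HoxB genes with a peak stayed within 1.5 times under every alternative tried: with limits of 0, 1 and 10 kb, 9, 9 and 10 genes had an MNase peak and 4, 5 and 6 a sonication peak, and peaks wider than 300 bp left 10 and 6. All 6 sonication peaks still overlapped an MNase peak when 50% of the sonication peak was required, and when MNase peaks had to be wider than 300 bp. MNase coverage of the cluster was 37.3% with peaks up to 1 kb apart joined and 42.4% from Hoxb9 to Hoxb1, without the long space, where sonication coverage was 5.42%. The space between Hoxb9 and Hoxb13 was covered to 14.4% without the 5 kb next to each gene. The median MNase share over the 10 genes was 47.1% with peaks joined and 46.0% with bases shared between HoxB genes left out (9 genes, since Hoxb4 has no bases of its own). Single genes moved more with peaks joined: Hoxb7 went from 72.4% to 100% and Hoxb8 from 62.0% to 82.3%. Among coding genes of a span like those of HoxB, 3.44% had an MNase peak and 1.26% a sonication peak within 5 kb. No paired analysis was possible because each experiment has 1 list with no value per library, and no replicate could be left out for the same reason. Depth is unknown, so the absence of a peak, as at Hoxb1, does not show the absence of Smchd1.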
